A study of Mus musculus with 6 samples.

Results

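Cycling keratinocytes were keratin-rich proliferating cells in single-cell RNA profiles of mouse back skin. They were chosen by measured values: a cell had to hold at least 30 unique molecular identifiers (UMIs, 1 per captured RNA molecule) per 10000 (cp10k) of the keratins Krt5, Krt14, Krt1 and Krt10 summed. It also had to hold at least 2 UMIs of Mki67 and Top2a summed, under 10 cp10k of the fibroblast collagens Col1a2 and Col3a1, and 0 UMIs of the leukocyte gene Ptprc. These limits kept 3624 cycling keratinocytes of 14894 cells that passed the keratin, collagen and Ptprc limits (keratin-gated cells) and of 50850 cells in all. Another 9688 keratin-gated cells held 0 UMIs of Mki67 and Top2a and are called non-cycling here. None of these limits tells cells of the epidermis from cells of hair follicles or sebaceous glands.

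Female C57BL/6J mice of 8 to 10 weeks were split into 3 groups, and each group gave 2 libraries. The Sham group had no treatment. The IMQ group was given imiquimod, an agonist of Toll-like receptor 7 that brings on a psoriasis-like skin inflammation, as 62.5 mg of a 5% cream per day on the shaved back for 4 days. IMQ+SHP099 mice received the same cream and, by gavage, 10 mg/kg per day of SHP099, an allosteric inhibitor of the tyrosine phosphatase SHP2 (gene Ptpn11), for 4 days. The wording of the sources used here leaves unclear whether the SHP099 days ran alongside the cream or came after it. This bears on every contrast of IMQ+SHP099. In the paper's clinical scores, mice on this dose already differed from IMQ mice within the days of cream. By the paper, each library pooled skin of 2 mice in Sham and of 3 mice in IMQ and IMQ+SHP099, so pool size went with treatment. A library is 1 replicate, and differences between single mice are not seen.

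The epidermis renews itself from its basal layer, whose Krt5 and Krt14 cells divide on the basement membrane and then move upwards, switch to Krt1 and Krt10 and build the cornified envelope. Dividing cells pass from G1 through S phase, when DNA is copied, to G2 and mitosis. Mki67 marks cells in cycle and Top2a, a DNA topoisomerase, peaks in G2 and mitosis. In psoriasis and in wounds keratinocytes divide faster, and they make the keratins Krt6, Krt16 and Krt17, antimicrobial proteins, and cytokines that act on leukocytes.

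Each deposited matrix held 7567 to 10746 barcodes and 53913865 to 188283327 UMIs. The libraries of a group were unlike in make-up: keratin-gated cells were 67.5% and 16.6% of the kept cells in Sham 1 and Sham 2, 15.9% and 7.34% in IMQ, and in IMQ+SHP099 61.5% and 5.70%. Among the kept barcodes 294 occurred in 2 or more libraries, and 1 barcode of a cycling keratinocyte did. The doublet caller Scrublet called 0 cells in Sham 1, IMQ 1 and IMQ+SHP099 1, where its thresholds were 0.598 to 0.619, and 1.64 to 3.13% of cells in the others. Only 1 cycling keratinocyte in Sham 2 and 2 in IMQ 2 were called doublets, and no cell was removed for it.

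Genes outside the limits were those of dividing keratinocytes. Of 12 further keratinocyte genes, 11 had a UMI in 85.8% or more of the cycling keratinocytes of every library. Krt15, a keratin of resting basal and follicle cells, was the other one, with a UMI in 95.9% and 93.6% of cells in Sham and in 18.2 to 36.7% in the treated libraries. The 12 further cycling genes were each found in 34.3% or more of the cells of every library, and summed they stood at 13.1 to 20.3 cp10k against 0.880 to 1.53 cp10k in non-cycling cells.

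Markers of other cell types were low but did not move evenly. The summed list of 8 Langerhans and dendritic cell markers stood at 11.8 cp10k in Sham 1, 0.654 in Sham 2, 0.349 and 0.656 in IMQ, and in IMQ+SHP099 1.89 and 1.18. Cd207, which marks Langerhans cells, had a UMI in 8.17% of the Sham 1 cells and in at most 2.19% elsewhere. The 8 neutrophil markers summed to at most 0.129 cp10k, with Ltf and Ly6g at 0 in all cycling keratinocytes. The 8 fibroblast markers summed to 0.875 to 2.01 cp10k, with Col1a1 in 48.3% of the Sham 2 cells. The lists of pericytes (0.295 to 1.86), T cells (0.475 to 1.23), macrophages (0.0810 to 0.679), Schwann cells (0.176 to 0.568), melanocytes (0.0210 to 0.372), endothelium (0.119 to 0.259) and mast cells (0 to 0.0445 cp10k) were low as well. The part of these cells or of their free RNA in the results was not tested.

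The share of cycling cells among keratin-gated cells was 8.02% in Sham 1 (465 of 5797 cells; exact 95% interval 7.33 to 8.75) and 17.2% in Sham 2 (234 of 1364; 15.2 to 19.3). It was 31.1% in IMQ 1 (379 of 1217; 28.5 to 33.8) and 33.2% in IMQ 2 (251 of 756; 29.8 to 36.7). In IMQ+SHP099 it was 41.1% in replicate 1 (2196 of 5339; 39.8 to 42.5) and 23.5% in replicate 2 (99 of 421; 19.5 to 27.9). All 4 treated libraries lay above both Sham libraries, while the IMQ+SHP099 libraries lay on either side of the IMQ libraries. The intervals cover counting error only, and 1 library, IMQ+SHP099 1, held 2196 of the 3624 cells.

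IMQ lay 19.6 percentage points above Sham (32.2 ± 1.46% against 12.6 ± 6.46%, SD, n = 2 each; exact permutation p = 0.333, two-sided). IMQ+SHP099 was 0.152 points above IMQ (32.3 ± 12.5%, n = 2; exact permutation p = 1) and 19.7 points above Sham (exact permutation p = 0.333). No lower p than 0.333 can come from 2 libraries set against 2. Without IMQ+SHP099 1 the difference from IMQ was -8.66 points, and without IMQ+SHP099 2 it was 8.96 points.

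The rule counts UMIs, and the treated cells held more of them. The median UMI number of keratin-gated cells in Sham was 9792 and 15140, against 34964 and 31433.5 in IMQ, and in IMQ+SHP099 25690 and 22131. When every cell was thinned to 4000 UMIs, the expected share was 4.12% and 9.93% in Sham, 8.21% and 12.6% in IMQ, and in IMQ+SHP099 15.0% and 8.84%, so the groups overlapped. Thinning left out 32 to 584 cells per library. The thinned difference between IMQ and Sham was 3.39 points (pooled SD 3.64, n = 2 each; exact permutation p = 0.667). At 8000 UMIs the Sham shares were 7.25% and 13.1%, against 15.3% and 20.2% in IMQ, and in IMQ+SHP099 25.9% and 15.5%, which no longer overlapped with Sham. Thinning to 8000 UMIs left out unlike numbers of cells: 2124 of 5797 in Sham 1, 123 in Sham 2, 90 and 54 in IMQ, and in IMQ+SHP099 385 and 53.

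The summed level of Mki67 and Top2a over all keratin-gated cells, which does not depend on a UMI limit, was 70.5 and 214 CPM (UMIs scaled to a sum of 1e6) in Sham. It was 103 and 148 CPM in IMQ and 169 and 118 CPM in IMQ+SHP099. The Sham libraries were thus the lowest and the highest of the 6, and the difference of IMQ from Sham was -16.5 CPM (exact permutation p = 1). When cycling was called instead from at least 10 cp10k of the 61 G2/M genes summed, the share was 42.3% and 46.0% in Sham and 46.2% and 45.1% in IMQ, with 60.7% and 40.6% in IMQ+SHP099. The groups then overlapped, and IMQ lay 1.52 points above Sham (exact permutation p = 0.667). In non-cycling cells the same list stood at 9.65 and 9.88 cp10k in Sham, 8.09 and 7.38 in IMQ, and in IMQ+SHP099 9.04 and 6.93. The limit of 10 cp10k thus lay near the level of non-cycling cells and separates the states poorly, so no conclusion is drawn from this overlap. No order of the groups is read from the share alone, since it went against the level of Mki67 and Top2a.

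**Figure D1:**
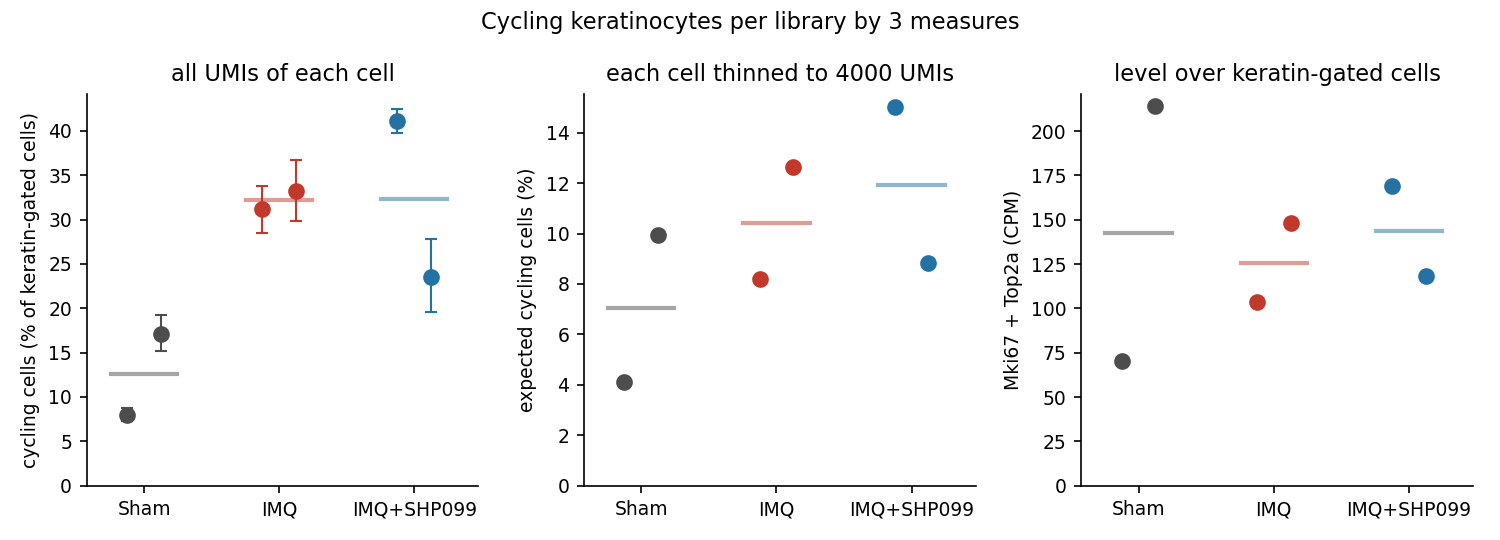
The 3 panels plot, per library, the share of keratin-gated cells that cycled (left, with exact 95% intervals), the same share after thinning each cell to 4000 UMIs (middle) and the level of Mki67 and Top2a in CPM (right); bars are group means of 2 libraries. The Sham libraries (8.02% and 17.2%) lie below all treated libraries in the left panel and overlap with them in the other panels.

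The members just inside and just outside the limits were as follows. Of the cycling keratinocytes, 643 (17.7%) held exactly 2 UMIs of Mki67 and Top2a, and 1582 keratin-gated cells held 1 UMI. There were 39 members with 30 to 40 cp10k of the keratins, and 39 cells outside with 20 to 30 cp10k. The Ptprc limit alone removed 162 cells that met the others. The upper limits of 6500 genes and 100000 UMIs removed 460 cells, 11.3% of those that met the rest, and this loss was 9.36% and 20.4% in Sham, 23.1% and 21.3% in IMQ, and in IMQ+SHP099 6.71% and 10.8%.

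Most cycling keratinocytes were basal-dominant, with at least as many Krt5 and Krt14 as Krt1 and Krt10 UMIs. Cells with more Krt1 and Krt10 than Krt5 and Krt14 UMIs, called suprabasal-dominant, made up 9.03% and 8.97% of them in Sham (42 and 21 cells), 3.43% and 0.797% in IMQ (13 and 2 cells), and in IMQ+SHP099 0.911% and 1.01% (20 and 1 cells). Both Sham libraries lay above all 4 treated libraries. The difference from Sham was -6.89 points for IMQ (exact permutation p = 0.333) and -8.04 points for IMQ+SHP099 (exact permutation p = 0.333). Its size moved with the limit on Mki67 and Top2a. At 1 UMI or more it was -15.8 points for IMQ and -16.4 for IMQ+SHP099. At 3 UMIs or more it was -2.23 and -3.38 points. In non-cycling cells the suprabasal-dominant share was 32.8% and 35.8% in Sham, 24.7% and 14.5% in IMQ, and in IMQ+SHP099 13.1% and 24.9%, and these too were lower in all 4 treated libraries. The keratin limit used the sum of the 4 genes and not their ratio. The ratio is not a measure of layer, and the part of altered keratin levels in it was not tested.

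Within basal-dominant cells 10.6% and 22.7% cycled in Sham, 36.2% and 36.1% in IMQ, and in IMQ+SHP099 43.9% and 28.4%. Within suprabasal-dominant cells 2.33% and 4.92% cycled in Sham, 6.34% and 3.03% in IMQ, and in IMQ+SHP099 5.24% and 1.32%. The basal-dominant shares separated treated from Sham libraries, and the suprabasal-dominant shares overlapped. After thinning to 4000 UMIs the basal-dominant shares overlapped as well, at 5.91% and 14.2% in Sham against 9.78% and 13.7% in IMQ.

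The balance of cycle phases was measured as the log2 ratio of UMIs from 61 genes of G2 and mitosis to UMIs from 51 genes of S-phase replication, with Mki67 and Top2a in neither list. It was 1.99 and 1.39 in Sham, 1.18 and 1.27 in IMQ, and in IMQ+SHP099 1.46 and 1.29. The IMQ ratios were the lowest and did not overlap with either other group. The difference was -0.466 for IMQ from Sham (exact permutation p = 0.333) and 0.149 for IMQ+SHP099 from IMQ (exact permutation p = 0.333). With no upper limit on genes or UMIs IMQ overlapped with Sham (difference -0.336, exact permutation p = 0.667) and with IMQ+SHP099 (0.0462, exact permutation p = 1). With a limit of 1 or 3 UMIs of Mki67 and Top2a it overlapped with IMQ+SHP099, and without Sham 1 the difference from Sham was -0.167, against -0.764 without Sham 2. The share of cycling cells with more G2/M than S-phase UMIs was 80.9% and 74.4% in Sham, 75.7% and 77.7% in IMQ, and in IMQ+SHP099 80.4% and 77.8%, and these shares overlapped. The median UMI number of cycling cells was 19813 and 20038 in Sham, 41934 and 35097 in IMQ, and in IMQ+SHP099 31409.5 and 34319. The limit of 2 UMIs was the same for all of them. The part of depth in the ratio was not tested.

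**Figure D2:**
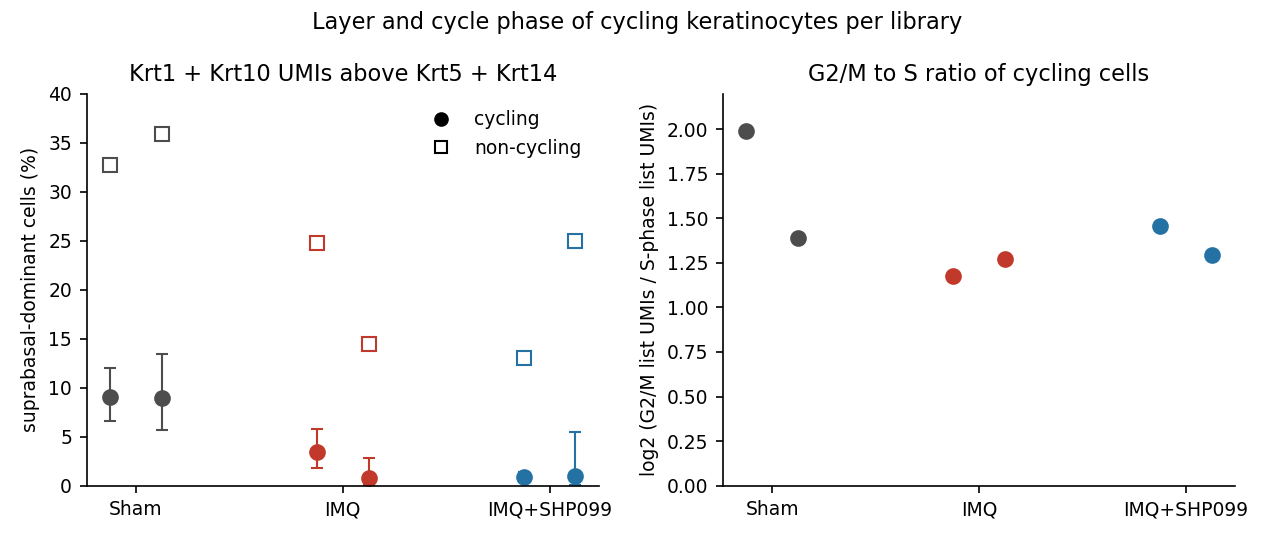
The left panel gives the percentage of suprabasal-dominant cells among cycling (filled, exact 95% intervals) and non-cycling (open) keratinocytes of each library, and the right panel the log2 ratio of G2/M to S-phase UMIs. Cycling cells lie below non-cycling cells in all 6 libraries, and the IMQ ratios of 1.18 and 1.27 are the lowest.

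Set beside non-cycling cells of the same library, cycling keratinocytes carried the whole programme of DNA replication and mitosis. This is a description, since the cells were selected on Mki67 and Top2a. Of the genes tested, 22.1% were above the non-cycling level in all 6 libraries and 23.4% below it. All 51 S-phase genes were above in 6 of 6 libraries (median log2 difference 2.21), as were 60 of the 61 G2/M genes (4.58) and all 12 replication-dependent histones (3.71). Among genes outside the gate with a mean of 20 CPM or more in cycling cells that lay above in 6 of 6 libraries, the largest mean differences were those of Nusap1, a spindle protein (log2 7.05 ± 1.47, SD, n = 6), Esco2, which sets sister chromatid cohesion (6.74 ± 1.19), Hmmr (6.27 ± 1.30) and Pbk, a mitotic kinase (6.17 ± 1.04). Cdk1, the kinase that drives entry into mitosis, differed by 5.82 ± 0.675 and Ube2c, which helps to degrade cyclins, by 5.74 ± 1.04.

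Genes of differentiation were on the low side. Of 20 early differentiation genes, 15 were below the non-cycling level in all 6 libraries, and of 17 cornified envelope genes 9 were. Among genes of 20 CPM or more that lay below in 6 of 6 libraries, the lowest were Cnfn, a protein of the cornified envelope (log2 -4.16 ± 1.39, SD, n = 6), Klk7, a protease that loosens the horny layer (-3.98 ± 2.03), and Cst6, an inhibitor of cathepsins (-3.51 ± 1.63). The mean difference was -2.67 for Krt6b, a wound keratin, and -2.90 for Sprr1b, a cornified envelope precursor.

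Promoters of 3 of these G2/M genes are shown because many genes of mitosis share a pair of promoter elements, the cell cycle genes homology region (CHR, TTTGAA) and the CCAAT box bound by NF-Y. The sequences are from RefSeq on build GRCm38.p6, run 5′ to 3′ on the strand of the gene and end at the base before its start. Capitals mark TTTGAA or CCAAT on either strand.
Cdk1, chr10:69352913-69353012, minus strand: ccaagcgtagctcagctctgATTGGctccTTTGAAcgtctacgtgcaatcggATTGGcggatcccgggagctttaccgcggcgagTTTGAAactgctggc
Ube2c, chr2:164769829-164769928, plus strand: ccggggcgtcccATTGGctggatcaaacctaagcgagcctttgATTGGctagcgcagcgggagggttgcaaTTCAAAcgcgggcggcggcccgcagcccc
Kif11, chr19:37376282-37376381, plus strand: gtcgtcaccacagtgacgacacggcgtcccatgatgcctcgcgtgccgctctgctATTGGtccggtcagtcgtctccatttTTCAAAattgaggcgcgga

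In the 250 bases before the start, searched on both strands, TTTGAA was present for 20 of the 50 G2/M genes with a promoter in the table (40%) and for 18.3% of all 27025 genes there. CCAAT was present for 36 of the 50 (72.0%) and for 37.5% of all genes. Of the 40 S-phase genes with a promoter in the table, 25 (62.5%) had CCAAT and 6 (15.0%) had TTTGAA. The motifs do not overlap in the windows shown. A match of letters is a description of the sequence and not a binding site.

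Gene levels of cycling keratinocytes were compared between groups on UMIs summed per library, 2 libraries a group, with edgeR's quasi-likelihood test over 12085 genes. A call is a Benjamini-Hochberg adjusted p under 0.05, and fold changes are fitted log2 values with their standard error (SE). In IMQ against Sham 16.4% of genes passed, 872 higher (7.22%) and 1105 lower (9.14%). Without IMQ 1 the count was 543 and without IMQ 2 it was 966. Of 114 called values of named genes, 59 held in each of the 6 fits that left out 1 library, and a loss stands beside the value it concerns. In such a fit the lone library of a group is assumed to vary like the other groups. A sum over cells cannot tell more cells of a kind from more RNA per cell.

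Among called genes of 20 CPM or more whose groups did not overlap, the largest increases were those of alarmins, stefins and a cytokine. S100a8 and S100a9 form calprotectin, an antimicrobial complex. S100a8 had 1.99 and 0.294 CPM in Sham, 11613 and 6900 in IMQ, and in IMQ+SHP099 14780 and 18943 (IMQ against Sham log2 12.85 ± 0.91, SE, adjusted p = 0.000154). S100a9 had 1.89 and 0 CPM in Sham, 11557 and 5806 in IMQ, and in IMQ+SHP099 16207 and 15080 (log2 12.98 ± 1.11, SE, adjusted p = 0.000314). Both stood under 2 CPM in Sham and at 5806 CPM or more in every treated library. Neutrophils also make both proteins, and the neutrophil markers summed to 0.129 cp10k or less in these cells.

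Gm5416 (chr16:36210403-36217788, GRCm38), a stefin-like gene, and Il19, a cytokine of the interleukin-10 family, had no UMI in either Sham library. Gm5416 had 0 and 0 CPM in Sham, 172 and 70.5 in IMQ, and in IMQ+SHP099 183 and 232. Against a floor of 3 counts over the Sham group it was at least 773-fold higher in IMQ (adjusted p = 0.000301). Il19 had 0 and 0 CPM in Sham, 110 and 43.7 in IMQ, and in IMQ+SHP099 160 and 150 and was at least 491-fold higher in IMQ (adjusted p = 0.000324). Treated and Sham libraries did not overlap in either gene.

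Saa3, an acute phase protein, and Stfa2, a cathepsin inhibitor, each had 2 UMIs in the Sham group. Saa3 had 0.0946 and 0.147 CPM in Sham and 119 and 26.9 in IMQ, a ratio of 731 (counting interval 202 to 6036, adjusted p = 0.00454). Stfa2 had 0.0946 and 0.147 CPM in Sham and 78 and 12.7 in IMQ, a ratio of 464 (128 to 3836, adjusted p = 0.00613). Gm5416, Stfa1, Stfa2 and Stfa3 lie in 1 cluster on chromosome 16 and are close copies, as are the Sprr2 genes on chromosome 3, so the split of reads among them is uncertain.

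Other strong increases were those of Lcn2, an iron-scavenging antimicrobial protein, 2610528A11Rik, and Serpinb3a, a protease inhibitor. Lcn2 had 1.42 and 2.94 CPM in Sham and 394 and 401 in IMQ (log2 7.56 ± 0.44, SE, adjusted p = 0.00014). 2610528A11Rik had 2.08 and 1.91 CPM in Sham and 496 and 296 in IMQ (log2 7.62 ± 0.56, SE, adjusted p = 0.000167). Serpinb3a had 0.946 and 0 CPM in Sham and 93.6 and 44 in IMQ (log2 6.93 ± 0.80, SE, adjusted p = 0.00106). The groups did not overlap in any of the 3 genes.

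Of the antimicrobial and alarmin list, 14 of 16 genes tested rose and none fell. Their median log2 fold change was 5.11, beside -0.07 for all genes, and 4.34 with the gene absent from Sham at its bound. Stfa1 had 48.1 and 25.4 CPM in Sham, 2408 and 1302 in IMQ, and in IMQ+SHP099 3921 and 2323 (IMQ against Sham log2 5.65 ± 0.57, SE, adjusted p = 0.000587). Il1f9, interleukin-36 gamma, had 5.49 and 4.56 CPM in Sham and 83.4 and 49.9 in IMQ (log2 3.72 ± 0.43, SE, adjusted p = 0.0011). Slpi, a secreted inhibitor of leukocyte proteases, had 2.18 and 0.736 CPM in Sham and 147 and 69.6 in IMQ (log2 6.13 ± 0.88, SE, adjusted p = 0.003). Il1f6, interleukin-36 alpha, had 1 UMI in the Sham group and was higher by a ratio of 140 (counting interval 24.8 to 5562, adjusted p = 0.000899). These genes separated IMQ from Sham in every library, and 11 to 13 of the 16 passed in the fits that left out 1 library.

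All 4 wound keratins rose. Krt6a (chr15:101689910-101694307, GRCm38) had 81.1 and 29.1 CPM in Sham, 3423 and 2243 in IMQ, and in IMQ+SHP099 3684 and 2544 (IMQ against Sham log2 5.68 ± 0.61, SE, adjusted p = 0.000797). Krt6b had 0.946 and 0.294 CPM in Sham, 1476 and 623 in IMQ, and in IMQ+SHP099 1397 and 871 (log2 10.60 ± 0.76, SE, adjusted p = 0.000154). Krt6a and Krt6b are close copies, so the split of reads between them is uncertain. Krt16 had 339 and 47.5 CPM in Sham, 3831 and 1687 in IMQ, and in IMQ+SHP099 3281 and 1296 (log2 3.83 ± 0.90, SE, adjusted p = 0.0225, lost without IMQ+SHP099 1 at adjusted p = 0.0521). Krt17, also a follicle keratin, had 1291 and 955 CPM in Sham, 3052 and 3188 in IMQ, and in IMQ+SHP099 4916 and 2605 (log2 1.47 ± 0.41, SE, adjusted p = 0.0406, lost without Sham 2, IMQ 1, IMQ 2, IMQ+SHP099 1 or IMQ+SHP099 2 at adjusted p = 0.0547 to 0.245). The IMQ and IMQ+SHP099 libraries overlapped in each of the 4 genes.

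Cornified envelope genes moved in both directions: 6 of 15 tested rose and 3 fell (median 1.75). Sprr2d had 0.662 and 0 CPM in Sham, 383 and 127 in IMQ, and in IMQ+SHP099 1088 and 404 (IMQ against Sham log2 9.33 ± 1.02, SE, adjusted p = 0.000849). Sprr2e, a small proline-rich precursor outside the list, had 0.473 and 0 CPM in Sham and 64.7 and 21.7 in IMQ (log2 7.23 ± 1.06, SE, adjusted p = 0.0032), and Sprr1b had 35.3 and 5.44 CPM in Sham and 794 and 262 in IMQ (log2 4.68 ± 0.85, SE, adjusted p = 0.00832). Tgm1, the transglutaminase that links the envelope, also rose, with 3.78 and 3.38 CPM in Sham and 37.2 and 12.5 in IMQ (log2 2.80 ± 0.50, SE, adjusted p = 0.00793). Sprr2h passed, with 2.27 and 0 CPM in Sham and 136 and 48.7 in IMQ (adjusted p = 0.0034), but was not refitted with a library left out, and Sprr1a overlapped at 376 and 31 CPM in Sham and 255 and 73.5 in IMQ (adjusted p = 0.845). The genes that fell were Lor, Flg and Flg2, which build the horny layer. Lor had 44.1 and 3.82 CPM in Sham and 2.94 and 2.04 in IMQ (log2 -3.26 ± 0.87, SE, adjusted p = 0.0353, lost without Sham 1, IMQ+SHP099 1 or IMQ+SHP099 2 at adjusted p = 0.0846 to 0.437), and its fold change without Sham 1 was log2 -0.59. Flg and Flg2 had no UMI in either IMQ library.

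Early differentiation and Notch genes were split, with 2 of 19 tested higher and 4 lower. Their median of 0.11 changed sign without Sham 1, Sham 2 or IMQ 1 and with a keratin limit of 100 cp10k. Krt77, a keratin of the suprabasal epidermis, had 1290 and 1712 CPM in Sham, 0.752 and 0.114 in IMQ, and in IMQ+SHP099 1.23 and 0.311 (IMQ against Sham log2 -11.56 ± 0.71, SE, adjusted p = 0.00014). It had the lowest fold change of the genes named here. Dsg1a, a desmosomal cadherin, had 198 and 253 CPM in Sham and 43.1 and 30.3 in IMQ (log2 -2.61 ± 0.30, SE, adjusted p = 0.0011), and Mt4, a metallothionein of stratified epithelium, had 151 and 121 CPM in Sham and 12.2 and 2.04 in IMQ (log2 -4.20 ± 0.66, SE, adjusted p = 0.00445). Grhl3, a transcription factor of barrier formation, rose and had 6.62 and 9.71 CPM in Sham and 48.4 and 23.7 in IMQ (log2 2.16 ± 0.37, SE, adjusted p = 0.00661). Ovol1, another factor of differentiation, rose too (log2 1.17 ± 0.35, SE, adjusted p = 0.0491, lost without each library in turn at adjusted p = 0.0502 to 0.496). The most abundant members, Krtdap (adjusted p = 0.0685), Dmkn (adjusted p = 0.849), Dsp (adjusted p = 0.973) and Klf4 (adjusted p = 0.795), did not pass. Jag2, a Notch ligand, was lower, with 118 and 128 CPM in Sham and 44.9 and 51.8 in IMQ (log2 -1.35 ± 0.25, SE, adjusted p = 0.00921, lost without IMQ 1 at adjusted p = 0.175 and without IMQ 2 at adjusted p = 0.0792).

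Basal layer genes included 5 of 16 that fell and none that rose (median -0.59). Krt15 had 3531 and 1967 CPM in Sham, 55.3 and 179 in IMQ, and in IMQ+SHP099 85.2 and 48.8 (IMQ against Sham log2 -4.56 ± 0.64, SE, adjusted p = 0.00268). Igfbp3, which binds insulin-like growth factors, had 975 and 298 CPM in Sham, 57.4 and 19.1 in IMQ, and in IMQ+SHP099 187 and 131 (log2 -4.05 ± 0.68, SE, adjusted p = 0.00581). Both separated Sham from IMQ. Cd44, a hyaluronan receptor, overlapped at 376 and 271 CPM in Sham and 409 and 332 in IMQ (adjusted p = 0.692). Col17a1, a hemidesmosomal collagen, had 1352 and 825 CPM in Sham and 350 and 293 in IMQ (log2 -1.76 ± 0.35, SE, adjusted p = 0.0124, lost without IMQ 1 at adjusted p = 0.123 and without IMQ 2 at adjusted p = 0.155), and Dst, a plakin that ties keratins to the hemidesmosome, had 366 and 415 CPM in Sham and 129 and 118 in IMQ (log2 -1.66 ± 0.26, SE, adjusted p = 0.00489, lost without IMQ 1 at adjusted p = 0.0946 and without IMQ 2 at adjusted p = 0.0956). Itga6, the hemidesmosome integrin, had 400 and 413 CPM in Sham, 356 and 282 in IMQ, and in IMQ+SHP099 386 and 406 and did not pass the test (adjusted p = 0.417).

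**Figure D3:**
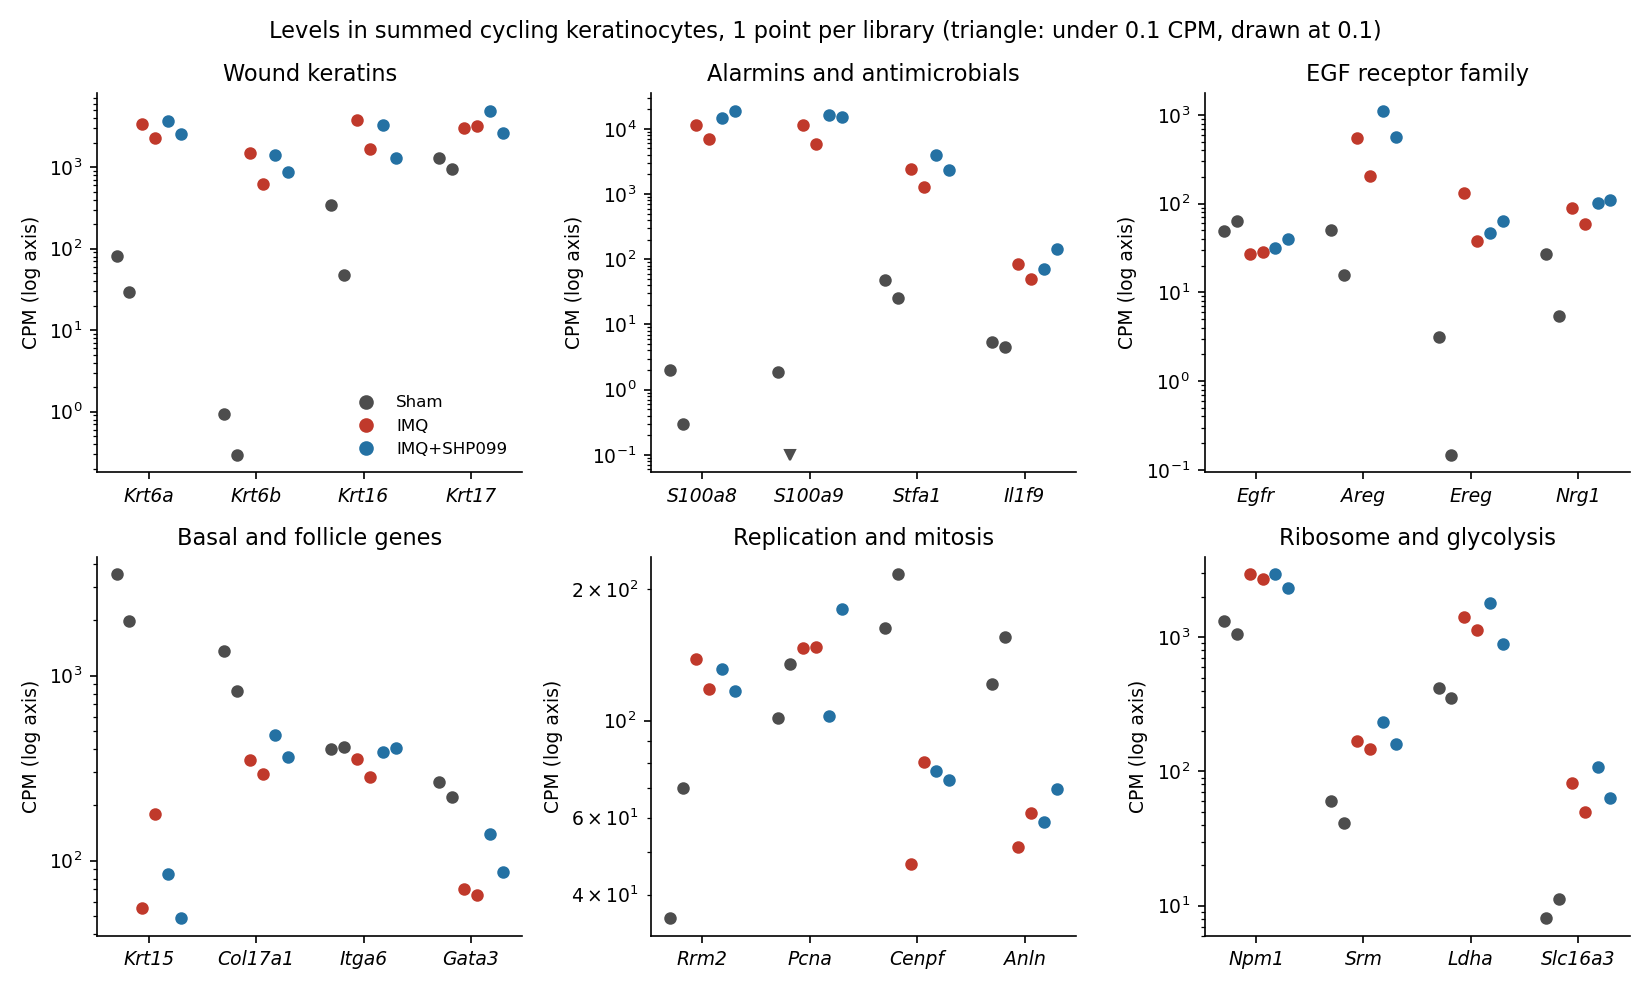
Each of the 6 panels plots, on a log axis, the CPM of 4 genes in the summed cycling keratinocytes of each library, coloured by group. Krt6b stands at 0.946 and 0.294 CPM in Sham and 1476 and 623 in IMQ, Krt15 at 3531 and 1967 in Sham and 55.3 and 179 in IMQ, while Itga6 and Pcna keep to a narrow range.

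The counts of calls in the S-phase and G2/M lists lay near the shares over all genes (7.22% higher and 9.14% lower), so they are no result about these lists. Of 51 S-phase genes 3 rose (Rrm2, Gins1 and Ccne1) and none fell (median 0.28). Rrm2, a subunit of ribonucleotide reductase, had 35.3 and 70 CPM in Sham, 138 and 118 in IMQ, and in IMQ+SHP099 131 and 117 (IMQ against Sham log2 1.29 ± 0.34, SE, adjusted p = 0.0327, lost without Sham 1, IMQ 1, IMQ 2, IMQ+SHP099 1 or IMQ+SHP099 2 at adjusted p = 0.059 to 0.19). Gins1, of the replicative helicase, had 7.57 and 8.68 CPM in Sham and 16.7 and 15.4 in IMQ (log2 0.99 ± 0.27, SE, adjusted p = 0.039, lost without Sham 1, IMQ 1 or IMQ 2 at adjusted p = 0.09 to 0.27), and Ccne1, cyclin E1, had 4.82 and 11 CPM in Sham and 19.2 and 18.6 in IMQ (log2 1.28 ± 0.36, SE, adjusted p = 0.043, lost without Sham 1, IMQ 1, IMQ 2, IMQ+SHP099 1 or IMQ+SHP099 2 at adjusted p = 0.0759 to 0.15). No S-phase gene passed without Sham 1, IMQ 1 or IMQ 2, and 10 passed without Sham 2. Pcna, the clamp of DNA polymerase, had 101 and 135 CPM in Sham, 147 and 147 in IMQ, and in IMQ+SHP099 103 and 180, and its IMQ+SHP099 libraries lay on either side of IMQ. Dut, which keeps uracil out of DNA, had 163 and 157 CPM in Sham and 189 and 208 in IMQ (adjusted p = 0.429). Rrm1, the other subunit of ribonucleotide reductase, had 79 and 135 CPM in Sham and 112 and 132 in IMQ and overlapped (adjusted p = 0.705).

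Of the 61 G2/M genes 1 rose and 6 fell (median -0.30). Cenpf, a kinetochore protein, had 163 and 216 CPM in Sham, 47.1 and 80.6 in IMQ, and in IMQ+SHP099 76.7 and 73.3 (IMQ against Sham log2 -1.57 ± 0.32, SE, adjusted p = 0.0127, lost without IMQ 1 at adjusted p = 0.212). Anln, a protein of the cleavage furrow, had 121 and 155 CPM in Sham and 51.4 and 61.6 in IMQ (log2 -1.29 ± 0.26, SE, adjusted p = 0.0129, lost without IMQ 1 at adjusted p = 0.219 and without IMQ 2 at adjusted p = 0.0919). Kif23, a kinesin of the central spindle, had 69.2 and 96.1 CPM in Sham and 24.7 and 43.7 in IMQ (log2 -1.28 ± 0.31, SE, adjusted p = 0.0266, lost without Sham 2, IMQ 1, IMQ+SHP099 1 or IMQ+SHP099 2 at adjusted p = 0.0562 to 0.315). Cks1b, a partner of cyclin-dependent kinases, was the gene that rose, with 140 and 123 CPM in Sham and 286 and 281 in IMQ (log2 1.11 ± 0.27, SE, adjusted p = 0.0238, lost without IMQ 1 at adjusted p = 0.24 and without IMQ 2 at adjusted p = 0.172). Hmgb2, Ube2c and Cks2, the most abundant members beside Tubb4b, overlapped between Sham and IMQ. The part of depth per cell in the levels of G2/M genes was not tested. Without the upper limits on genes and UMIs, 1 gene of this list rose, 1 fell and the median was 0.01, and without IMQ 1 none passed.

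Of 20 G1 regulators tested 2 fell and none rose (median -0.59). Over all genes 9.14% fell and 7.22% rose, so this count is no result about the list. Ccnd2, cyclin D2, had 245 and 205 CPM in Sham, 41 and 53.5 in IMQ, and in IMQ+SHP099 55.9 and 68 (IMQ against Sham log2 -2.26 ± 0.28, SE, adjusted p = 0.00142). Cdk4, a kinase that the D cyclins activate, had 159 and 135 CPM in Sham and 218 and 238 in IMQ and did not pass (adjusted p = 0.134). The most abundant members Btg1 (adjusted p = 0.0822), Btg2 (adjusted p = 0.298) and Cdkn1a (adjusted p = 0.664), which restrain division, did not pass either. Of the 12 replication-dependent histones 2 fell, both linker histones. Hist1h1d had 57.9 and 18.1 CPM in Sham and 7.39 and 8.63 in IMQ (log2 -2.26 ± 0.48, SE, adjusted p = 0.0151), and Hist1h1e had 148 and 66.2 CPM in Sham and 36.7 and 43.4 in IMQ (log2 -1.42 ± 0.39, SE, adjusted p = 0.0382, lost without Sham 1, IMQ 1, IMQ 2, IMQ+SHP099 1 or IMQ+SHP099 2 at adjusted p = 0.0656 to 0.232). The other 10 did not pass, and of these Hist1h1b, another linker histone, had 83.3 and 126 CPM in Sham and 57.7 and 90.5 in IMQ (adjusted p = 0.328). Capture was by poly(A) tails, which most of these histone mRNAs lack, so their counts are a part of the true ones.

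Genes of ribosome building were on the high side: 8 of 20 rose, none fell and all 20 fold changes were positive (median 0.94). Npm1, a nucleolar chaperone, had 1309 and 1059 CPM in Sham, 2935 and 2727 in IMQ, and in IMQ+SHP099 2942 and 2321 (IMQ against Sham log2 1.26 ± 0.35, SE, adjusted p = 0.0384, lost without IMQ 1, IMQ 2, IMQ+SHP099 1 or IMQ+SHP099 2 at adjusted p = 0.0717 to 0.339). Srm, spermidine synthase, had 60.2 and 41.5 CPM in Sham and 169 and 147 in IMQ (log2 1.64 ± 0.31, SE, adjusted p = 0.00969, lost without IMQ 1 at adjusted p = 0.0776), and Nhp2, of the small nucleolar particles, had 188 and 136 CPM in Sham and 445 and 382 in IMQ (log2 1.35 ± 0.32, SE, adjusted p = 0.0234, lost without IMQ 1 at adjusted p = 0.215 and without IMQ 2 at adjusted p = 0.0956). The Sham and IMQ libraries did not overlap in these genes. Ncl, nucleolin, at 456 and 493 CPM in Sham and 962 and 915 in IMQ (adjusted p = 0.0515) and Pa2g4 at 186 and 149 CPM in Sham and 334 and 304 in IMQ (adjusted p = 0.0512) missed the threshold narrowly. Without IMQ 1 none of the 20 passed and without IMQ 2 there were 2, while DESeq2 called 14.

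Glycolysis and hypoxia genes gave 11 of 20 higher and none lower (median 1.29). Slc16a3, a lactate exporter, had 8.04 and 11.2 CPM in Sham, 82.3 and 50.1 in IMQ, and in IMQ+SHP099 108 and 63.7 (IMQ against Sham log2 2.79 ± 0.38, SE, adjusted p = 0.00208). Ldha, lactate dehydrogenase, had 420 and 351 CPM in Sham and 1405 and 1139 in IMQ (log2 1.72 ± 0.40, SE, adjusted p = 0.0215, lost without IMQ 1 at adjusted p = 0.173 and without IMQ 2 at adjusted p = 0.0659), and Pkm, pyruvate kinase, had 493 and 354 CPM in Sham and 1497 and 1105 in IMQ (log2 1.62 ± 0.39, SE, adjusted p = 0.0254, lost without IMQ 1 at adjusted p = 0.234 and without IMQ 2 at adjusted p = 0.0723). Aldoa, aldolase, passed (adjusted p = 0.0238) but was not refitted singly with a library left out, and Gapdh, at 1342 and 734 CPM in Sham and 3285 and 2590 in IMQ, did not pass (adjusted p = 0.069). Without IMQ 1 the count was 2 of 20, and without IMQ 2 it was 3.

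Among chemokines and cytokines of keratinocytes 5 of 17 tested rose and 2 fell (median 1.14). Cxcl1, which draws neutrophils, had 15 and 9.12 CPM in Sham, 197 and 111 in IMQ, and in IMQ+SHP099 182 and 256 (IMQ against Sham log2 3.66 ± 0.41, SE, adjusted p = 0.000904). Il24 had 1.89 and 0.736 CPM in Sham and 40 and 16.1 in IMQ (log2 4.33 ± 0.54, SE, adjusted p = 0.00144). Csf3, which drives granulocyte production, had 1 UMI in the Sham group and rose, with 0.0946 and 0 CPM in Sham and 34.6 and 9.19 in IMQ, a ratio of 435 (counting interval 77.8 to 17215, adjusted p = 0.00118). Cxcl2, a neutrophil attractant, had 38.5 and 1.32 CPM in Sham, 282 and 126 in IMQ, and in IMQ+SHP099 344 and 428 and missed the threshold (adjusted p = 0.0541). The pair that fell were chemokines. Ccl27a, which draws skin-homing T cells, had 697 and 237 CPM in Sham and 28.8 and 29.6 in IMQ (log2 -4.00 ± 0.52, SE, adjusted p = 0.00185), and Cxcl14 had 730 and 206 CPM in Sham and 65.9 and 125 in IMQ (log2 -2.29 ± 0.57, SE, adjusted p = 0.0271, lost without Sham 1, IMQ 1, IMQ+SHP099 1 or IMQ+SHP099 2 at adjusted p = 0.0634 to 0.149).

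Of 15 interferon-stimulated genes tested 5 fell and none rose (median -1.15). Usp18, which limits interferon signalling, had 7.66 and 4.12 CPM in Sham and 0.342 and 0.114 in IMQ (log2 -4.54 ± 0.80, SE, adjusted p = 0.00726). Bst2, tetherin, had 27.9 and 12.8 CPM in Sham, 5.61 and 4.77 in IMQ, and in IMQ+SHP099 11.2 and 13.7 (IMQ against Sham log2 -1.97 ± 0.38, SE, adjusted p = 0.0107), and Psmb9, of the immunoproteasome, had 140 and 70.5 CPM in Sham and 25.9 and 38.6 in IMQ (log2 -1.71 ± 0.36, SE, adjusted p = 0.0152, lost without IMQ 1 at adjusted p = 0.138). The abundant Ifitm3, which blocks viral entry, overlapped between the groups at 1230 and 388 CPM in Sham and 828 and 1069 in IMQ. Psmb8, also of the immunoproteasome, did not pass (adjusted p = 0.13). Without Sham 1, 1 gene of the list rose and 4 fell.

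The EGF receptor family, whose receptors signal through SHP2 to ERK, gave 3 of 10 genes higher and 1 lower (median 0.85). The ligand Areg had 50.2 and 15.7 CPM in Sham, 548 and 205 in IMQ, and in IMQ+SHP099 1118 and 572 (IMQ against Sham log2 3.51 ± 0.67, SE, adjusted p = 0.00994). The ligand Ereg had 3.12 and 0.147 CPM in Sham, 132 and 38.2 in IMQ, and in IMQ+SHP099 46.5 and 64.3 (log2 5.55 ± 0.85, SE, adjusted p = 0.00404). Both lay higher in all treated libraries than in Sham. Hbegf, another ligand, overlapped at 228 and 119 CPM in Sham and 372 and 210 in IMQ (adjusted p = 0.271). The ligand Nrg1 rose as well, with 26.9 and 5.44 CPM in Sham and 89.1 and 58.8 in IMQ (log2 2.17 ± 0.57, SE, adjusted p = 0.0333, lost without IMQ 1, IMQ+SHP099 1 or IMQ+SHP099 2 at adjusted p = 0.072 to 0.0763), and Egfr, the receptor, fell, with 49.1 and 64.1 CPM in Sham, 27.1 and 28.5 in IMQ, and in IMQ+SHP099 31.4 and 40.4 (log2 -1.02 ± 0.25, SE, adjusted p = 0.0255, lost without Sham 2, IMQ 1 or IMQ 2 at adjusted p = 0.0743 to 0.256).

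Ptpn11, the gene of the SHP2 protein that SHP099 inhibits, had 40.6 and 43.8 CPM in Sham, 41.7 and 43.1 in IMQ, and in IMQ+SHP099 41.3 and 39.5. Its level kept to 39.5 to 43.8 CPM over the 6 libraries, and the drug acts on the protein, which was not measured here. Of 16 genes of ERK feedback and SHP2 signalling 2 fell in IMQ against Sham and none rose (median -0.14, which was positive without Sham 1 or Sham 2). Over all genes 9.14% fell, so this count is no result about the list. Ptpn6, the related phosphatase SHP1, had 14.1 and 13.2 CPM in Sham and 4.92 and 4.65 in IMQ (log2 -1.51 ± 0.35, SE, adjusted p = 0.0213, lost without IMQ 1 at adjusted p = 0.142 and without IMQ 2 at adjusted p = 0.12), and Spred2, an inhibitor of the pathway, had 29.4 and 48.2 CPM in Sham and 12.4 and 16.8 in IMQ (log2 -1.41 ± 0.35, SE, adjusted p = 0.0272, lost without Sham 2 at adjusted p = 0.0948 and without IMQ 1 at adjusted p = 0.191). Ier3 (adjusted p = 0.428) and Fosl1 (adjusted p = 0.627), which ERK induces, did not pass.

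Immediate early and heat shock genes gave 0 calls of 16 by edgeR, with 4 at an unadjusted p under 0.05 and 3 calls by DESeq2 (median -0.68, and 0.09 without Sham 1). Fos had 2006 and 1890 CPM in Sham, 2129 and 1991 in IMQ, and in IMQ+SHP099 1984 and 1896. Jun had 3644 and 1715 CPM in Sham, 1766 and 1496 in IMQ, and in IMQ+SHP099 1899 and 1404, so that Sham 1 was highest. Atf3 had 2618 and 1153 CPM in Sham, 1063 and 748 in IMQ, and in IMQ+SHP099 1606 and 1066, and Hspa8, a chaperone, had 973 and 1178 CPM in Sham, 2075 and 1730 in IMQ, and in IMQ+SHP099 1979 and 1741. Adjusted p-values from edgeR were 0.888 for Fos, 0.273 for Jun, 0.141 for Atf3 and 0.119 for Hspa8.

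Hair follicle genes gave 6 of 18 tested lower and none higher (median -1.30). Gata3, a factor of the follicle and the epidermis, had 267 and 220 CPM in Sham, 70.2 and 65.5 in IMQ, and in IMQ+SHP099 140 and 87.3 (IMQ against Sham log2 -1.84 ± 0.31, SE, adjusted p = 0.00577, lost without IMQ 1 at adjusted p = 0.0655 and without IMQ 2 at adjusted p = 0.0599). Lgr5, a follicle stem cell marker, had 9.74 and 32.1 CPM in Sham and 0.821 and 4.88 in IMQ (log2 -2.94 ± 0.77, SE, adjusted p = 0.0323, lost without Sham 2, IMQ 1, IMQ+SHP099 1 or IMQ+SHP099 2 at adjusted p = 0.075 to 0.155), and Lgr6, its relative, had 47.6 and 56.5 CPM in Sham and 4.58 and 17.7 in IMQ (log2 -2.25 ± 0.53, SE, adjusted p = 0.0225, lost without Sham 2, IMQ 1, IMQ+SHP099 1 or IMQ+SHP099 2 at adjusted p = 0.0517 to 0.0619). The libraries of Sham and IMQ did not overlap in these 3 genes. The part of a changed mix of epidermal and follicle cells in these values was not tested. Krt79 (adjusted p = 0.0871) and Sox9 (adjusted p = 0.778) did not pass. Of 10 sebaceous gland genes Mgst1, a glutathione transferase, rose, with 53.3 and 99.4 CPM in Sham and 310 and 345 in IMQ (log2 2.10 ± 0.34, SE, adjusted p = 0.00545), and Dgat2, an enzyme of triglyceride synthesis, fell, with 20.8 and 23.8 CPM in Sham and 13.1 and 9.08 in IMQ (log2 -1.0 ± 0.27, SE, adjusted p = 0.0373, lost without Sham 2, IMQ 1, IMQ 2, IMQ+SHP099 1 or IMQ+SHP099 2 at adjusted p = 0.0678 to 0.366).

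Scd1 (adjusted p = 0.887), Plin2 (adjusted p = 0.214) and Elovl4 (adjusted p = 0.573), which work in lipid storage and synthesis, did not pass in IMQ against Sham. The sebaceous gland list, with 1 of 10 higher and 1 lower, lay near the shares over all genes (7.22% and 9.14%). Its counts are no result about the list.

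**Figure D4:**
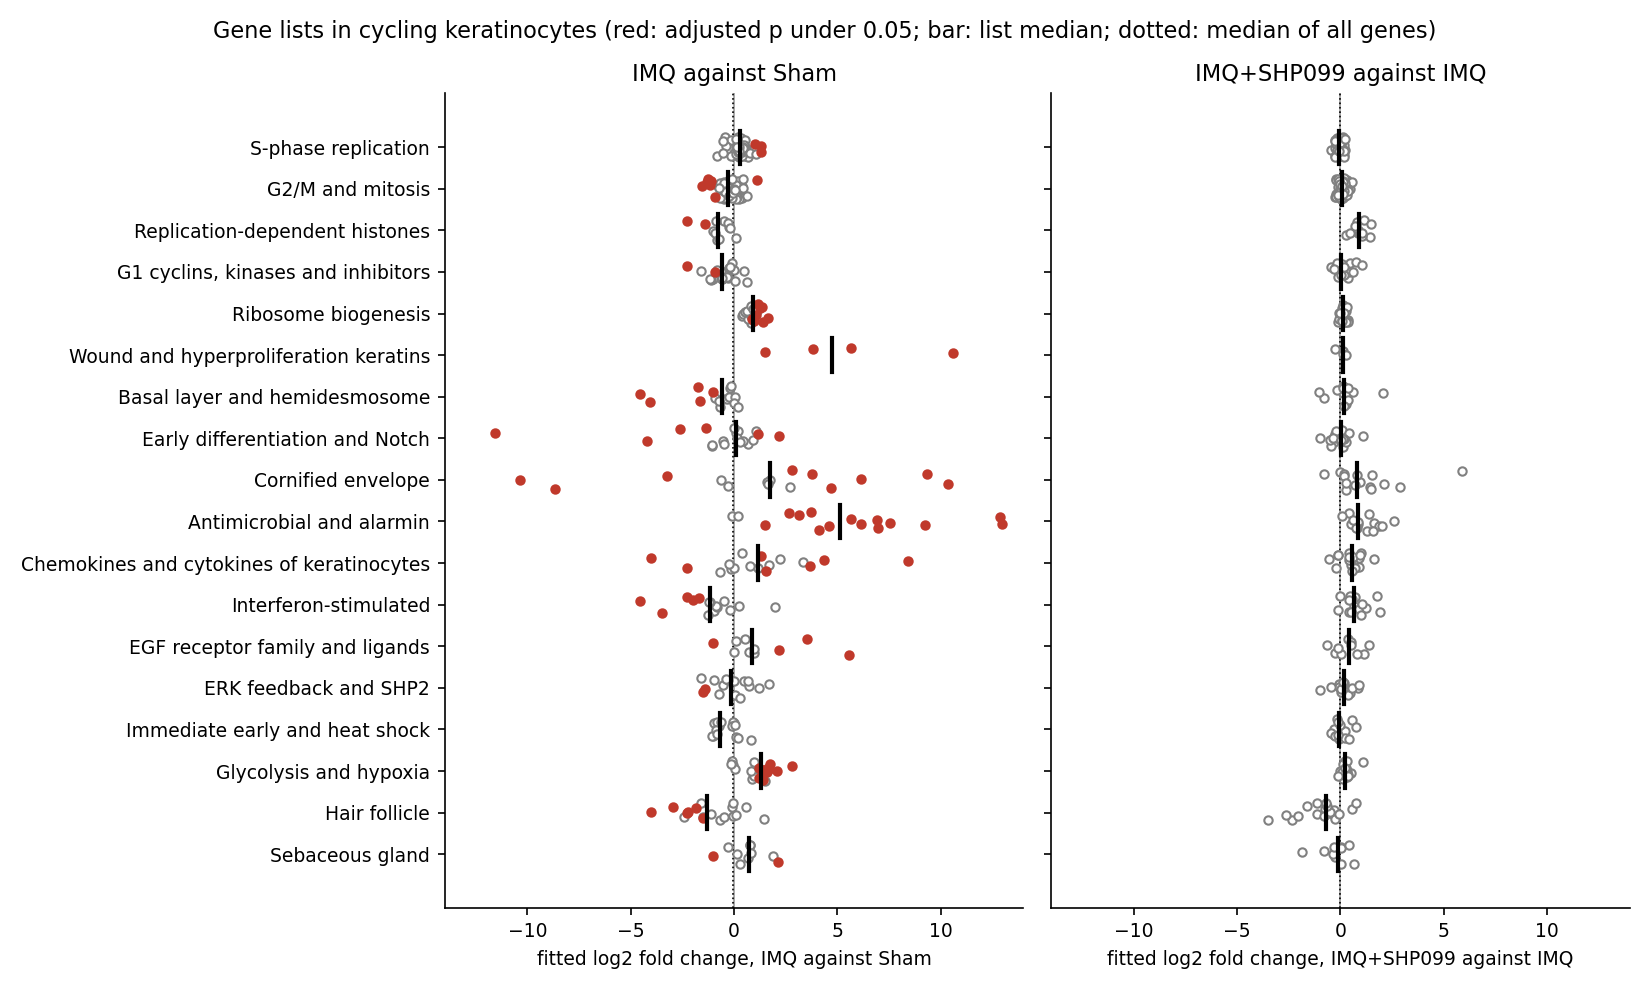
Each point is a gene of a list at its fitted log2 fold change in cycling keratinocytes, filled where the adjusted p was under 0.05, with the list median as a bar and the median of all genes as a dotted line. In IMQ against Sham (left) 14 of 16 antimicrobial genes and 4 of 4 wound keratins are filled on the right of 0, and in IMQ+SHP099 against IMQ (right) no point is filled.

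Further genes with large drops in IMQ against Sham included Fcgbp, Il1r2, the decoy receptor of interleukin-1, and Pkib, an inhibitor of protein kinase A. Fcgbp had 707 and 498 CPM in Sham, 3.69 and 8.51 in IMQ, and in IMQ+SHP099 34.2 and 17.7 (IMQ against Sham log2 -6.65 ± 0.56, SE, adjusted p = 0.000301). Il1r2 had 323 and 91.4 CPM in Sham, 1.09 and 2.72 in IMQ, and in IMQ+SHP099 10.2 and 9.01 (log2 -6.84 ± 0.71, SE, adjusted p = 0.000646). Pkib had 2 UMIs in the IMQ group and was lower by a ratio of 525 (counting interval 145 to 4341, adjusted p = 0.000744). The log2 fold changes of Serpinb7, Sema3d, Dapl1, Bbox1 and Krt80 were -7.57, -6.89, -5.59, -5.30 and -4.97.

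Some calls stood beside markers of other cells. H2-Aa and H2-Eb1, of the class II complex that Langerhans cells carry, passed beside a Langerhans and dendritic list of 11.8 cp10k in Sham 1 and 0.654 in Sham 2. H2-Aa had 137 and 7.65 CPM in Sham and 1.64 and 3.29 in IMQ (log2 -4.93 ± 1.24, SE, adjusted p = 0.0288, lost without Sham 1, IMQ+SHP099 1 or IMQ+SHP099 2 at adjusted p = 0.0533 to 0.199), with a fold change of log2 -1.68 without Sham 1. H2-Eb1 had 186 and 7.5 CPM in Sham and 1.64 and 3.52 in IMQ (log2 -5.29 ± 1.25, SE, adjusted p = 0.0233, lost without Sham 1, IMQ+SHP099 1 or IMQ+SHP099 2 at adjusted p = 0.0564 to 0.121), with log2 -1.59 without Sham 1. Both were highest in Sham 1. Hba-a1, the alpha globin of red cells, had 6.15 and 154 CPM in Sham and 1.3 and 0.681 in IMQ (log2 -6.25 ± 1.68, SE, adjusted p = 0.0354, lost without Sham 2 at adjusted p = 0.291), with log2 -2.54 without Sham 2. The part of these cells was not tested.

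Trbc2, a constant segment of the T cell receptor, rose and had 40.7 and 34.9 CPM in Sham and 116 and 98.5 in IMQ (log2 1.5 ± 0.29, SE, adjusted p = 0.011, lost without IMQ 1 at adjusted p = 0.0917). It had a UMI in 36.1% and 35.5% of the Sham cells and in 74.7 to 83.4% of the treated cells. Cd3d, Cd3e and Cd3g, which T cells need for their receptor, had a UMI in at most 3.03% of the cells of any library.

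IMQ+SHP099 against IMQ gave 0% of genes called by edgeR (0 of 12085). At an unadjusted p under 0.05 there were 426 genes, DESeq2 called 16, and 179 passed without a filter on low counts. This contrast shares the IMQ libraries with the first, and its 2 IMQ+SHP099 libraries held 2196 and 99 cycling keratinocytes. Values of this contrast are given with no change called. A gene without a call may still differ: in data simulated for IMQ against Sham, the test recovered 4 of 50 genes changed 2-fold.

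Hist1h2ap, a core histone, had 260 and 297 CPM in Sham, 118 and 190 in IMQ, and in IMQ+SHP099 492 and 354, so that IMQ was lowest and IMQ+SHP099 highest with no overlap. Hist1h2ae had 96.7 and 113 CPM in IMQ and 226 and 337 in IMQ+SHP099. All 12 histones had a positive fold change (median 0.91 beside -0.0041 for all genes). All 16 antimicrobial genes did too (median 0.86). Hair follicle genes were on the other side (median -0.72), with Lhx2, a follicle stem cell factor, at 3.42 and 23.6 CPM in IMQ and 2.15 and 2.17 in IMQ+SHP099.

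Ligands of the EGF receptor were ordered differently. Areg and Epgn were higher in both IMQ+SHP099 libraries than in both IMQ libraries, Epgn at 180 and 87.1 CPM in IMQ and 360 and 327 in IMQ+SHP099, while Ereg overlapped. Of the genes that ERK induces, Egr1 had 342 and 319 CPM in IMQ and 203 and 276 in IMQ+SHP099, Dusp6 had 47.8 and 51.9 CPM in IMQ and 61.1 and 64 in IMQ+SHP099 and Phlda1 had 538 and 297 CPM in IMQ and 724 and 503 in IMQ+SHP099. Egr1 was lower and Dusp6 higher in both IMQ+SHP099 libraries, and Phlda1 overlapped. None of these genes passed in this contrast, and their order is likewise no result.

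IMQ+SHP099 against Sham, which shares the Sham libraries with the first contrast, called 18.3% of genes, 998 higher (8.26%) and 1219 lower (10.1%). Without IMQ+SHP099 1 the count was 233, and without IMQ+SHP099 2 it was 1268. Gm5416 was at least 1074-fold (adjusted p = 0.000264) and Il19 at least 922-fold higher (adjusted p = 0.000299) than the floor of Sham. S100a9 (log2 13.83 ± 1.14, SE, adjusted p = 0.000339) and S100a8 (log2 13.72 ± 0.93, SE, adjusted p = 0.000219) followed. Sprr2b, with no UMI in Sham, was at least 630-fold higher (adjusted p = 0.00451, lost without IMQ+SHP099 1 at adjusted p = 0.0504).

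Among called genes of 20 CPM or more whose groups did not overlap, the largest decreases were those of Krt77 (log2 -10.46 ± 0.68, SE, adjusted p = 0.000219), Hba-a1 (log2 -7.41 ± 2.02, SE, adjusted p = 0.0349, lost without Sham 2, IMQ+SHP099 1 or IMQ+SHP099 2), Sema3d (log2 -7.21 ± 0.50, SE, adjusted p = 0.000219), Serpinb7 (log2 -5.43 ± 0.61, SE, adjusted p = 0.00116) and Bbox1 (log2 -5.41 ± 0.56, SE, adjusted p = 0.00082). Of the lists, 14 of 16 antimicrobial genes, 4 of 4 wound keratins, 15 of 20 ribosome genes and 13 of 20 glycolysis genes rose, and 8 of 18 follicle genes fell. Without IMQ+SHP099 1 these counts were 9, 2, 0, 1 and 0. Dusp6 (log2 0.78 ± 0.23, SE, adjusted p = 0.0456, lost without Sham 2, IMQ 1, IMQ 2, IMQ+SHP099 1 or IMQ+SHP099 2 at adjusted p = 0.0726 to 0.158) and Phlda1 (log2 2.25 ± 0.52, SE, adjusted p = 0.0199, lost without IMQ+SHP099 1 at adjusted p = 0.167 and without IMQ+SHP099 2 at adjusted p = 0.0523) rose against Sham, and Egr1 fell (log2 -1.44 ± 0.32, SE, adjusted p = 0.017, lost without IMQ 1, IMQ 2, IMQ+SHP099 1 or IMQ+SHP099 2 at adjusted p = 0.051 to 0.164). Among genes that did not pass in IMQ against Sham, Krtdap (log2 1.20 ± 0.36, SE, adjusted p = 0.0462, lost without IMQ 1, IMQ 2, IMQ+SHP099 1 or IMQ+SHP099 2 at adjusted p = 0.1 to 0.246), Ncl (log2 1.14 ± 0.30, SE, adjusted p = 0.03, lost without IMQ 1, IMQ 2, IMQ+SHP099 1 or IMQ+SHP099 2 at adjusted p = 0.0802 to 0.145) and Cxcl2 (log2 4.25 ± 1.06, SE, adjusted p = 0.0259, lost without IMQ+SHP099 1 at adjusted p = 0.147 and without IMQ+SHP099 2 at adjusted p = 0.0875) rose here; the difference between the contrasts was not called for any gene.

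In non-cycling keratinocytes IMQ against Sham called 18.6% of 12744 genes, IMQ+SHP099 against IMQ 0% by edgeR (360 genes at an unadjusted p under 0.05), and IMQ+SHP099 against Sham 17.6%. Whether a gene responded differently in cycling cells was tested as the interaction of cycling state and group, with library as a block, over 13095 genes scaled together. In IMQ against Sham 3.81% of genes passed, 213 with a higher and 286 with a lower response in cycling cells. In IMQ+SHP099 against IMQ 0% passed by edgeR, with 509 genes at an unadjusted p under 0.05. The count for IMQ against Sham was 202 without Sham 1, 233 without Sham 2, 74 without IMQ 1 and 35 without IMQ 2, and it was 936 and 905 without IMQ+SHP099 1 and 2.

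Of the basal layer and hemidesmosome genes, which include those that tie basal cells to the basement membrane, 11 of 16 passed, all with a higher response in cycling cells (median difference 1.09 beside -0.01 for all genes). Itga6 had 321 and 439 CPM in Sham and 89.5 and 54.8 in IMQ in non-cycling cells. In cycling cells, on the same scale, it had 367 and 384 CPM in Sham and 328 and 258 in IMQ (difference of log2 responses 2.05 ± 0.29, SE, adjusted p = 0.0114, lost without IMQ 2 at adjusted p = 0.0764). It was thus lower under IMQ in non-cycling cells and much less so in cycling cells. Itgb4, its partner, had 128 and 111 CPM in Sham and 36 and 23.5 in IMQ in non-cycling cells and 157 and 118 CPM in Sham and 126 and 107 in IMQ in cycling cells (1.78 ± 0.22, SE, adjusted p = 0.0087). Itga3, a laminin receptor, differed by 2.04 ± 0.32, SE, adjusted p = 0.0163, lost without IMQ 1 at adjusted p = 0.0911 and without IMQ 2 at adjusted p = 0.0831.

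Among called genes of 20 CPM or more whose groups did not overlap, the others with the highest differences were Ctnnal1, Col23a1 and Slc27a3. Ctnnal1 is a relative of alpha-catenin and Col23a1 a transmembrane collagen. Ctnnal1 had 31.9 and 28.9 CPM in Sham and 4.21 and 4.3 in IMQ in non-cycling cells and 49.5 and 50.1 CPM in Sham and 23.2 and 29 in IMQ in cycling cells (1.88 ± 0.18, SE, adjusted p = 0.00593). Col23a1 differed by 1.99 ± 0.37, SE, adjusted p = 0.0281, lost without IMQ 1 at adjusted p = 0.092 and without IMQ 2 at adjusted p = 0.151 and Slc27a3 by 1.86 ± 0.32, SE, adjusted p = 0.0218, lost without Sham 2, IMQ 1 or IMQ 2 at adjusted p = 0.0562 to 0.122. The D cyclins Ccnd2 (0.90 ± 0.15, SE, adjusted p = 0.0211) and Ccnd1 (0.75 ± 0.15, SE, adjusted p = 0.0331) had a higher response in cycling cells too. The differences of Itgb4, Krt17, Ccnd2 and Ccnd1 were not refitted with a library left out.

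Under the same limits, the lower responses were led by Akr1c18, a steroid dehydrogenase, and by the kallikrein proteases Klk7 and Klk5. Akr1c18 had 42.9 and 55.9 CPM in Sham and 93.5 and 151 in IMQ in non-cycling cells and 74.7 and 230 CPM in Sham and 22.8 and 22.2 in IMQ in cycling cells (-3.80 ± 0.39, SE, adjusted p = 0.00593). It rose in non-cycling and fell in cycling cells. Klk7 had 149 and 139 CPM in Sham and 115 and 311 in IMQ in non-cycling cells and 58.1 and 36.3 CPM in Sham and 2.08 and 9.14 in IMQ in cycling cells (-3.73 ± 0.57, SE, adjusted p = 0.0152, lost without IMQ 1 at adjusted p = 0.0779 and without IMQ 2 at adjusted p = 0.0747). Klk5 differed by -3.60 ± 0.56, SE, adjusted p = 0.0163, lost without IMQ 1 at adjusted p = 0.0785 and without IMQ 2 at adjusted p = 0.116. Krt17 had 813 and 832 CPM in Sham and 6531 and 8058 in IMQ in non-cycling cells and 1186 and 889 CPM in Sham and 2816 and 2916 in IMQ in cycling cells (-1.66 ± 0.23, SE, adjusted p = 0.0114).

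Skint9, of the Skint family of epidermal surface proteins, fell in both states. Its difference (-3.60 ± 0.77, SE, adjusted p = 0.0413, lost without Sham 1, Sham 2, IMQ 1 or IMQ 2 at adjusted p = 0.0534 to 0.248) rests on 1 UMI in the cycling IMQ cells. Ckap2, a spindle protein, had 1.49 and 3.32 CPM in Sham and 16.2 and 17.2 in IMQ in non-cycling cells and 58.3 and 65.3 CPM in Sham and 37.5 and 46.3 in IMQ in cycling cells (-3.53 ± 0.28, SE, adjusted p = 0.00593). It was 1 of 15 G2/M genes with a lower response, against 1, Ttk, with a higher one, of 61 (median difference -0.68). Non-cycling cells were chosen for 0 UMIs of Mki67 and Top2a, and their median depth was 9224 and 13974 UMIs in Sham and 31235 and 28028 in IMQ. The part of depth in these differences was not tested.

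**Figure D5:**
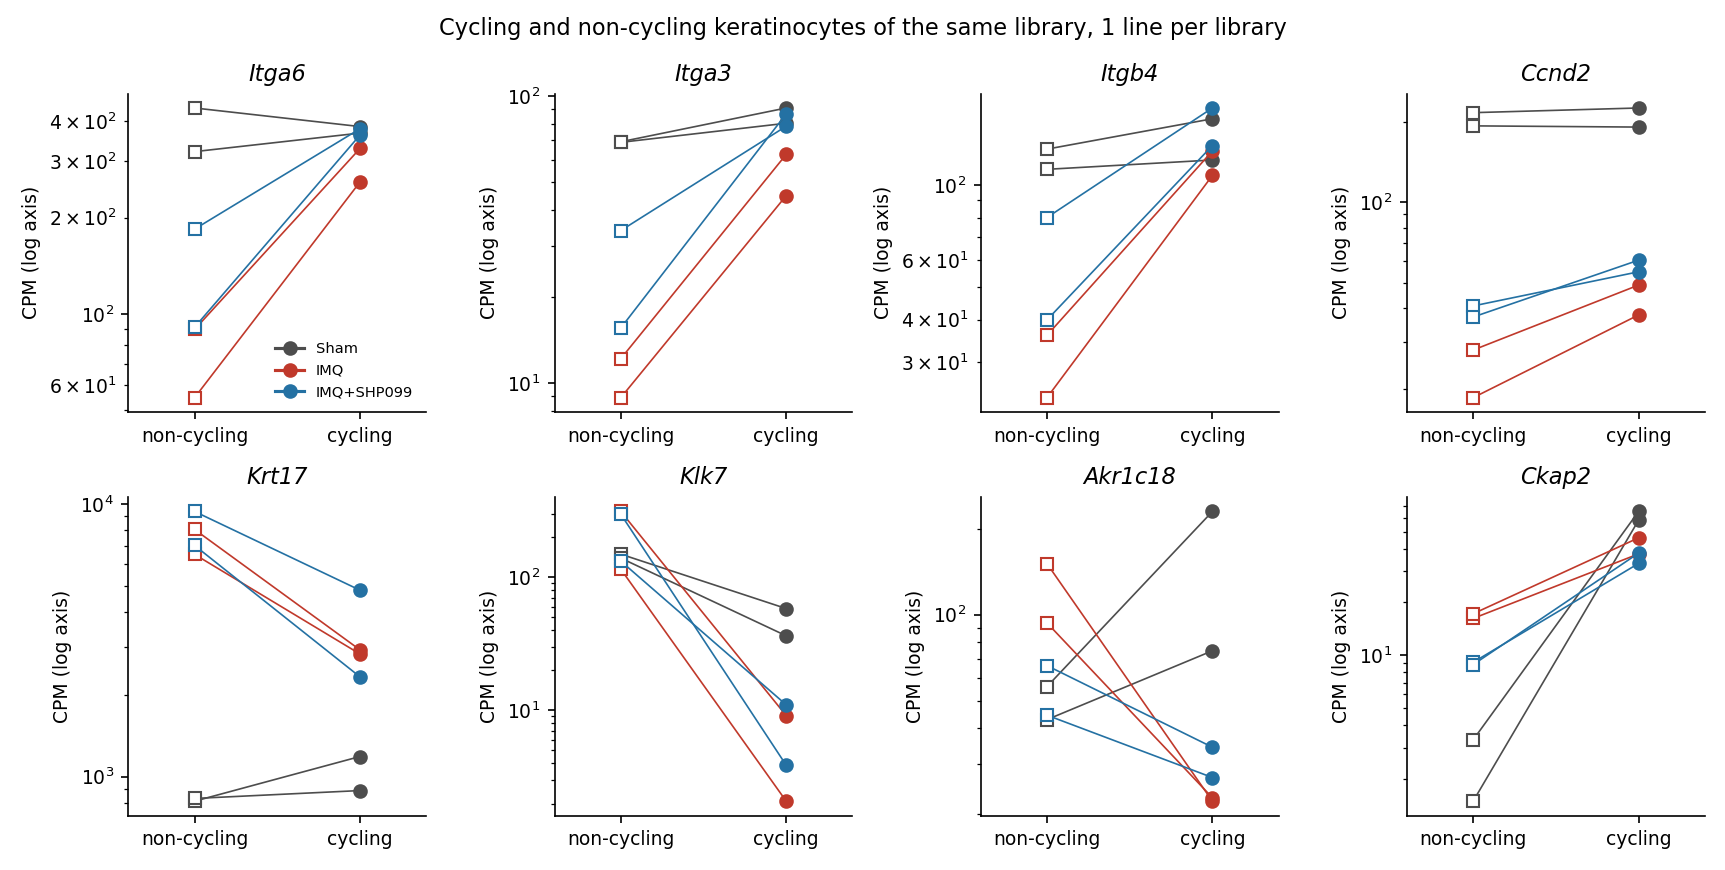
Each line joins the CPM (log axis) of non-cycling and cycling keratinocytes of 1 library, in 8 panels of 1 gene each, coloured by group. Itga6, Itga3 and Itgb4 are higher in cycling than in non-cycling cells of all 4 treated libraries, while Akr1c18 and Klk7 are lowest in the cycling cells of those libraries.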

How the data were processed

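Skin cells of 3 groups with 2 libraries each were profiled with 10x Chromium Single Cell 3′ chemistry. The deposited matrices hold UMI counts per gene and barcode, made by the authors with Cell Ranger on mm10 (GRCm38). The file headers name version 3.1.0. A cell was kept below each of 3 limits: 10% mitochondrial UMIs, 6500 genes and 100000 UMIs in all. The members and lists were chosen with earlier results of these data known. Counts were summed per library and tested with edgeR 4.0.16 (TMM, filterByExpr, quasi-likelihood F test, all 6 libraries in 1 fit, Benjamini-Hochberg over all genes), with DESeq2 1.42.0 as an alternative, in R 4.3.3. Scrublet was run in scanpy 1.11.5. Cycling cells called from the summed G2/M genes were a further alternative for the share. The scripts were tested on simulated data. For IMQ against Sham in cycling cells, 4 of 50 genes changed 2-fold were recovered and 40 of 50 changed 4-fold. Of 153 calls there 11 were false. For the difference of response 30 of 50 and 48 of 50 were recovered, and 21 of 199 calls were false. Single values per library were compared by exact permutation tests, two-sided. The interaction fit had library as a block. Cycling against non-cycling has no test, since the rule chose the cells. Genes were named by size: called, at a mean of 20 CPM or more and with groups not overlapping, the top 12 each way in IMQ against Sham and the top 5 in the others, and also the 4 most abundant members of each list. A gene that this rule names is not reported here. Further called list members were chosen after their values were seen, as were 2 alternatives: leaving out the highest 5% of Scrublet scores and the upper limits on genes and UMIs. Nothing states that the pools are separate experiments, so p-values measure the spread between these libraries. Intervals cover counting error only. The labels and the study's methods name different sequencers.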

Additional observations from a re-analysis of the deposited data

Results flagged for a closer look

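In IMQ against Sham, 499 genes passed edgeR's test that the response differed between cycling and non-cycling keratinocytes. The genes named next also had a mean of 20 CPM or more and groups that did not overlap. Of such genes, the 5 with the highest differences of log2 responses were Itga6 (2.05), Itga3 (2.04), Col23a1 (1.99), Ctnnal1 (1.88) and Slc27a3 (1.86). The 5 with the lowest were Akr1c18 (-3.80), Klk7 (-3.73), Skint9 (-3.60), Klk5 (-3.60) and Ckap2 (-3.53). Each was picked out because the test of the difference itself passed. Calls lost with a library left out are named with their values above, as are the limits of Skint9 and Ckap2.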

How the results depend on the processing

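The share in IMQ+SHP099 minus IMQ changed sign with at least 1 UMI of Mki67 and Top2a (-0.612 points), a keratin limit of 100 cp10k (-0.0217), 0 UMIs of 8 markers of other cell types (-0.628), a mitochondrial limit of 5% (-0.0254) and no upper limit on genes or UMIs (-3.45). Leaving out 1 library gave -8.66 to 8.96 points for it, -1.58 to 4.59 for the depth-matched share and -2.47 to 0.164 for the suprabasal share of the same contrast. Calls in IMQ against Sham numbered 3135 with a replicate block, 1256 with no upper limit, and 543 to 1978 without 1 library. In IMQ+SHP099 against IMQ they were 16 with DESeq2, 179 with no filter on low counts, 35 with the replicate block and 0 to 6 without 1 library, and in IMQ+SHP099 against Sham 3365 with the replicate block and 233 to 2537 without 1 library. The difference between states in IMQ against Sham gave 1143 calls with no filter, 905 with basal-dominant cells and 35 to 936 without 1 library, and that in IMQ+SHP099 against IMQ gave 31 with no filter. The causes were not tested. Deviations of same-numbered libraries correlated across genes at 0.191, 0.279 and 0.0967, all positive. Whether a replicate number stands for more than a number was not tested. Of 1754 alternative values for 114 called values of single genes, 1542 stayed called, 212 lost the call and 0 reversed, and the replicate block kept all 104 it was run on. With 2 libraries against 2, no permutation test can pass.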
